A study of Homo sapiens with 4 samples.

Results

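The regions described here are strong TEAD4 peaks of MKN28, a human gastric cancer cell line, at which no TEAD4 peak was called in SNU216, another human gastric cancer cell line. They were chosen from the authors' peak lists by 2 values. The MKN28 score had to be at least 500, and the peak had to share no base with any SNU216 peak. This left 1446 of the 39477 MKN28 peaks, and of 51017 peaks in both lists together. They are called MKN28-only strong peaks here. The other 1647 of the 3093 MKN28 peaks with a score of at least 500 overlapped an SNU216 peak and are called shared strong peaks. A missing SNU216 peak means a signal below the authors' calling threshold, and TEAD4 may still have been bound there.

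TEAD4 belongs to the TEAD proteins, transcription factors that bind DNA directly and recruit the co-activators YAP and TAZ, which the kinases of the Hippo pathway keep out of the nucleus when the pathway is active. In epithelial cancer cells TEAD proteins bind mostly at enhancers far from gene starts, often beside AP-1 factors, and drive genes of growth, adhesion and the cytoskeleton.

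Chromatin immunoprecipitation followed by sequencing (ChIP-seq) was done in both lines with a TEAD4 antibody from Abnova, and an input of sonicated DNA without antibody was made from each line. MKN28 and SNU216 each gave 1 TEAD4 library and 1 input library, and neither line carried a labelled treatment or genetic change. MKN28 is listed in registries of misidentified lines as a derivative of the gastric line MKN74, so its name stands for that origin. With 1 library per line there is no replicate check, no p-value can be given, and depth is unknown, since read counts are not part of the lists. The SNU216 list is shorter, with 11540 peaks. A longer or deeper SNU216 list could hold some of these sites, and this cannot be told apart from a difference in binding.

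The scores of the MKN28-only strong peaks describe the choice and test nothing. Their median was 694.7, with quartiles of 579.7 and 899.6, a lowest value of 500.03 and a highest of 3100. The shared strong peaks had a median of 779.3, with quartiles of 616.1 and 1154. Just inside the threshold were peaks of 500.03 in 6q21, 500.39 in 21q22.11 and 500.65 in 5q23.2. Just outside it were peaks without an SNU216 peak of 499.84 in 17q25.3, 499.82 in 5q23.2 and 499.72 in 9p24.2. The scores run through the threshold without a gap, so it marks a place in a continuous range.

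Of all strong MKN28 peaks, 46.8% (exact 95% interval 45.0 to 48.5) had no SNU216 peak. Among MKN28 peaks of any score the figure was 82.9%, and since overlap chose the regions nothing is read from the difference. Score and overlap are both part of the choice, so the shares by score describe it and test nothing. The share within the strong range was mostly lower at higher scores. It was 56.0% (454 of 811 peaks) for scores of 500 to 600, 49.5% (493 of 996) for 600 to 800 and 49.9% (244 of 489) for 800 to 1000. It was 35.6% (190 of 533) for 1000 to 1500 and 28.2% (46 of 163) for 1500 to 2000. At 2000 and above, 19 of 101 peaks (18.8%, 11.7 to 27.8) still had no SNU216 peak. Of the 500 highest-scoring MKN28 peaks, 137 (27.4%, 23.5 to 31.5) were MKN28-only. These intervals cover counting error only, and neighbouring peaks are not independent.

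**Figure D1:**
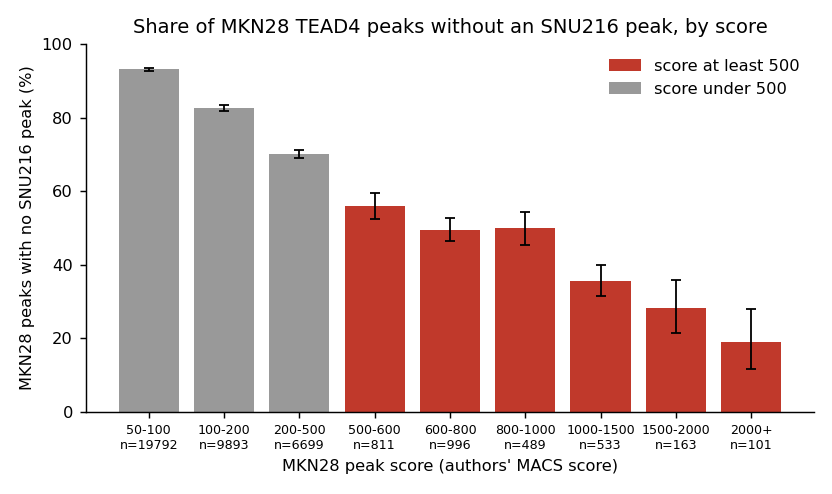
Share of MKN28 TEAD4 peaks with no SNU216 peak (y axis, percent) in 9 ranges of the authors' score (x axis, with the number of peaks). Bars show the share and whiskers its exact 95% interval; red bars hold the 1446 MKN28-only strong peaks, whose share is 56.0% in the lowest strong range and 18.8% in the highest.

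The 10 highest-scoring MKN28-only peaks lay on 7 chromosomes. No peak was assigned to a gene, and genes are mentioned below only as background on a band. In 22q11.21, the band of the signalling adaptor gene CRKL, a peak of 1238 bp scored 3100 (chromosome 22, 21391606 to 21392843). The nearest SNU216 peak was 119.9 kb away and scored 115.9. A peak of 1122 bp in 1p36.31 also scored 3100 (chromosome 1, 5464283 to 5465404), and its nearest SNU216 peak was 800.5 kb away. Both sit at the value where MKN28 scores pile up, so they cannot be ranked against each other. A second 1p36.31 peak (5777557 to 5778404) scored 2366 and was 487.5 kb from that same SNU216 peak.

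In 11q23.3 a peak of 1626 bp scored 2985 (chromosome 11, 115940945 to 115942570), with an SNU216 peak 58.8 kb away. In 19q13.12, a band rich in zinc finger genes, a peak of 1336 bp scored 2766 (chromosome 19, 36673352 to 36674687), with an SNU216 peak 45.1 kb away. The closest to an SNU216 peak among the 10 was in 8q24.21, the band of the MYC oncogene. It was 1979 bp wide and scored 2575 (chromosome 8, 128831431 to 128833409). An SNU216 peak with a score of 372.6 ended 8.50 kb before it, and that SNU216 peak itself overlapped another MKN28 peak. This region is therefore a site beside a common one. The 1p36.31 sites among the 10 differ, lying at least 487.5 kb from any SNU216 peak.

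The remaining 4 of the 10 scored between 2174 and 2322. They were in 8q23.2 (chromosome 8, 110749708 to 110750537, score 2322), 2q35 (chromosome 2, 220526785 to 220527938, score 2281), 19q13.41 (chromosome 19, 52479025 to 52479636, score 2257) and 16p11.2 (chromosome 16, 29790700 to 29791392, score 2174). Their nearest SNU216 peaks were 110.3, 22.3, 165.4 and 135.4 kb away, in the same order. The SNU216 peak nearest to the 8q23.2 site scored 50.20, close to the lowest score in the SNU216 list. The 19q13.41 and 16p11.2 peaks were narrow for their score, at 612 and 693 bp.

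The median distance between the edges of an MKN28-only strong peak and the nearest SNU216 peak was 72.5 kb (95% interval of the median 67.1 to 79.8), with quartiles of 24.3 and 188.8 kb. For shared strong peaks the nearest SNU216 peak other than the one they overlapped was at a median of 24.4 kb (21.2 to 27.2). MKN28 peaks with a score under 500 and no SNU216 peak had a median of 75.5 kb (73.9 to 77.0). The intervals of the MKN28-only strong and the weaker unmatched peaks share values, and that of the shared strong peaks lies apart.

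By distance class, 24 MKN28-only strong peaks (1.66%) had an SNU216 peak less than 1 kb away and 165 (11.4%) at 1 to 10 kb. At 10 to 100 kb there were 661 (45.7%), at 100 kb to 1 Mb 571 (39.5%), and beyond 1 Mb 25 (1.73%). Shared strong peaks had another SNU216 peak less than 1 kb away in 123 cases (7.47%) and at 1 to 10 kb in 439 (26.7%). An SNU216 peak within 100 kb was found for 850 MKN28-only strong peaks (58.8%, 56.2 to 61.3) and for 1303 shared strong peaks (79.1%, 77.1 to 81.1). The share over all MKN28 peaks was 61.0%, so the MKN28-only strong peaks were near this background and the shared ones above it. The difference held in each range of score: at 500 to 600 the medians were 72.6 kb for MKN28-only and 26.2 kb for shared peaks, and at 1000 to 1500 they were 91.2 and 20.3 kb. Closeness to other SNU216 peaks is not independent of the choice, since a region with more SNU216 peaks also gives more overlap.

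**Figure D2:**
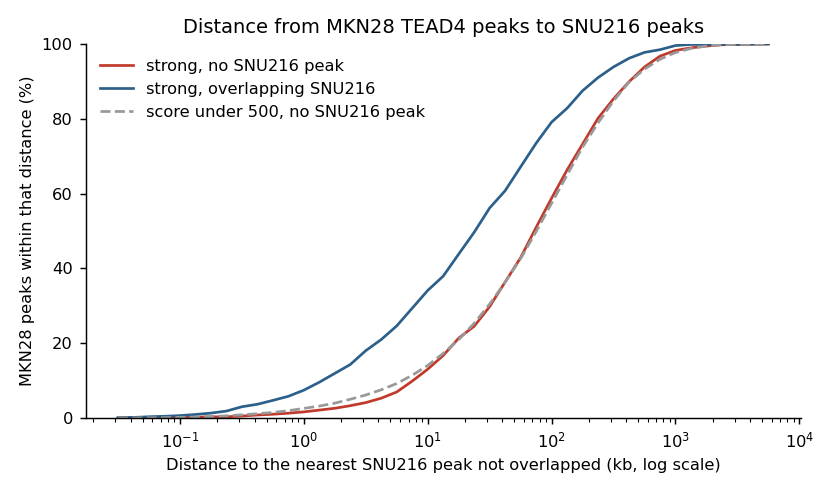
Percent of MKN28 TEAD4 peaks (y axis) whose nearest SNU216 peak, other than any they overlap, lies within a distance in kb (x axis, log scale), for 3 sets of MKN28 peaks. The lines of MKN28-only strong peaks (red) and weaker unmatched peaks (grey, dashed) run close together, with medians of 72.5 and 75.5 kb, and that of shared strong peaks (blue) lies to the left, with a median of 24.4 kb.

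The 3 nearest cases were almost adjacent peaks. In 9p21.1, an MKN28 peak with a score of 651.6 (chromosome 9, 33161505 to 33162207) was 34 bp from an SNU216 peak with a score of 97.2. In 14q23.3 (chromosome 14, 65702975 to 65703843, score 557.5) the gap was 37 bp to an SNU216 peak with a score of 54.1. In 2q34 (chromosome 2, 209847388 to 209849143, score 516.1) it was 132 bp to an SNU216 peak with a score of 52.5. Each of these 3 SNU216 peaks overlapped another MKN28 peak. Among all 24 cases under 1 kb, 20 of the SNU216 peaks did so (83.3%, 62.6 to 95.3). Most of these close cases were thus pairs of MKN28 peaks of which SNU216 shared the neighbour.

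The 3 farthest peaks stood in long stretches with no SNU216 peak. In 4q28.3 (chromosome 4, 134175204 to 134175926, score 673.4) the nearest was 4443 kb away, and in 4q34.3 (chromosome 4, 178371991 to 178372732, score 628.6) it was 4198 kb away. In Xq21.33 (chromosome X, 96565185 to 96565837, score 1443) it was 2488 kb away. All 3 lie in dark Giemsa bands, the gene-poor part of the genome. Over all 1446, the nearest SNU216 peaks were 1155 distinct peaks with a median score of 80.2, against 84.7 for the SNU216 list. Of these 1155 peaks, 792 (68.6%, 65.8 to 71.2) overlapped a different MKN28 peak, against 59.3% of all SNU216 peaks.

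The neighbourhoods of MKN28-only and shared strong peaks were alike in MKN28 and unlike in SNU216. The SNU216 side is tied to the choice, since a region with more SNU216 peaks also gives more overlap. Such counts were not made around weaker unmatched peaks. Within 500 kb of the peak centre, leaving out the peak itself, a median of 24 other MKN28 peaks (quartiles 16 and 33) lay around an MKN28-only strong peak, and 25 (16 and 34) around a shared one. SNU216 peaks in the same span, leaving out overlapping partners, had a median of 5 (2 and 9) around MKN28-only strong peaks and 7 (4 and 11) around shared ones. No SNU216 peak lay in this span for 117 MKN28-only strong peaks (8.09%, 6.74 to 9.62) and for 46 shared ones (2.79%, 2.05 to 3.71). Within 25 kb, the density of SNU216 peaks was 7.94 per Mb around MKN28-only strong peaks and 18.5 per Mb around shared ones. For MKN28 peaks it was 41.3 and 46.9 per Mb. The genome as a whole held 12.8 MKN28 and 3.73 SNU216 peaks per Mb. SNU216 peaks were therefore denser around MKN28-only strong peaks than over the genome as a whole. From 250 to 500 kb, SNU216 densities were closer, at 5.47 per Mb around MKN28-only and 6.43 per Mb around shared strong peaks.

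**Figure D3:**
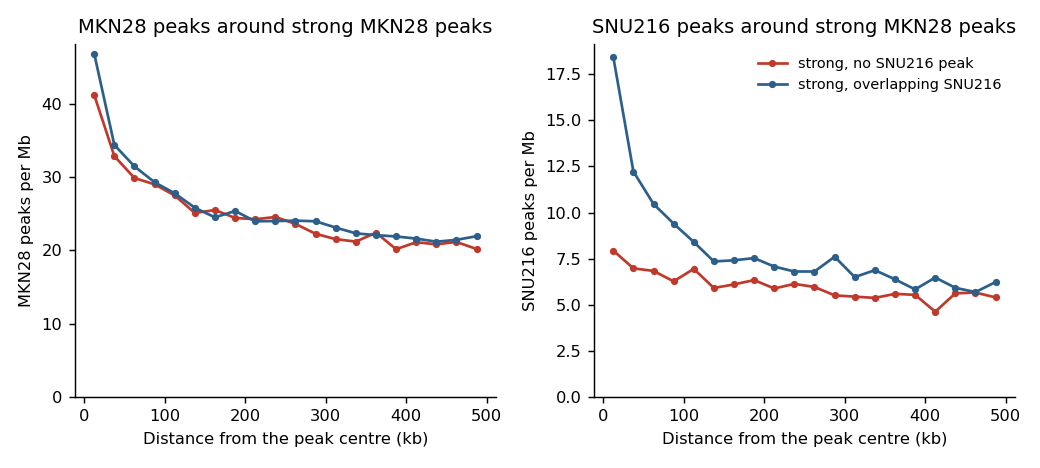
Density of other MKN28 peaks (left) and of SNU216 peaks (right), in peaks per Mb (y axes), by distance in kb from the centre of a strong MKN28 peak (x axes, steps of 25 kb); the peak itself and the peaks it overlaps are left out. Within 25 kb the MKN28 densities are 41.3 per Mb around MKN28-only (red) and 46.9 per Mb around shared strong peaks (blue), and the SNU216 densities are 7.94 and 18.5 per Mb.

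Width is not independent of the choice, since a wider MKN28 peak can more easily share a base with an SNU216 peak. In width the MKN28-only strong peaks were like the shared ones. Their median was 779.5 bp (766 to 792), with quartiles of 653 and 950 bp, and the shared strong peaks had a median of 779 bp (768 to 791), with quartiles of 650.5 and 935 bp. The narrowest had 312 bp (1p36.32) and the widest 3388 bp. A width of at least 1000 bp was found in 300 MKN28-only strong peaks (20.7%, 18.7 to 22.9) and 329 shared ones (20.0%, 18.1 to 22.0), against 4.05% of all MKN28 peaks. Width rises with score, so each was also divided by the median width of MKN28 peaks of like score. This ratio had a median of 1.01 (0.993 to 1.03) in MKN28-only and 0.990 (0.976 to 1.004) in shared strong peaks. It was above 1 in 746 MKN28-only strong peaks (51.6%), near the 49.8% of all MKN28 peaks.

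At the top of the score range the medians were further apart. For scores of 1500 to 2000 the median width was 1024 bp (46 peaks) in MKN28-only and 860 bp (117 peaks) in shared peaks. At 2000 and above it was 1030 bp (19 peaks) and 907 bp (82 peaks). The intervals of these medians overlapped, at 875 to 1150 bp and 836 to 890 bp in the first range and at 693 to 1357 bp and 822 to 1005 bp in the second.

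**Figure D4:**
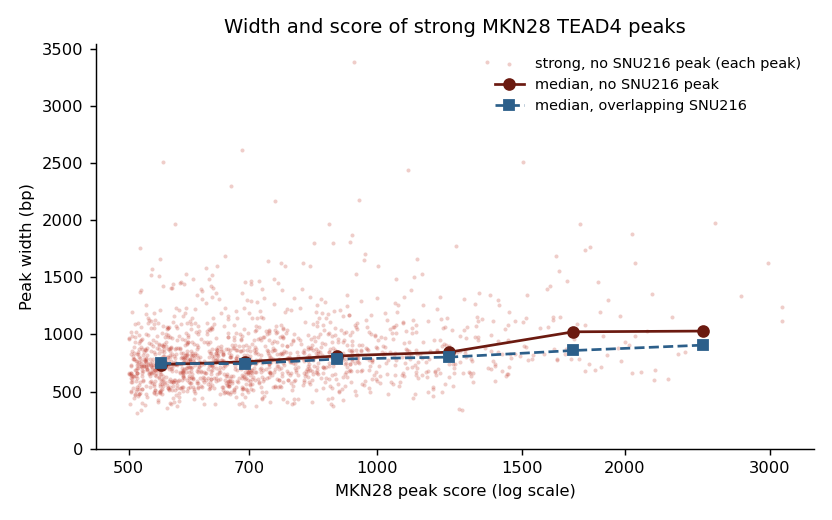
Width in bp (y axis) against the authors' score (x axis, log scale) for each MKN28-only strong peak (red points), with the median width in 6 ranges of score for MKN28-only (dark red) and shared strong peaks (blue, dashed). The medians are 737 and 747 bp at scores of 500 to 600, and 1024 and 860 bp at 1500 to 2000.

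Of the 5 widest MKN28-only strong peaks, 3 lay in 22q11.21. They were 3388 bp (chromosome 22, 18807800 to 18811187, score 938.7), 3387 bp (21608850 to 21612236, score 1361) and 2617 bp wide (21788608 to 21791224, score 686.1). These are 4.32, 4.004 and 3.49 times the median width at like score. The first had an SNU216 peak 8.91 kb away, and the other two were 337.1 and 516.9 kb from one. The fourth, in the centromere band 19q11, was 2505 bp wide (chromosome 19, 28349550 to 28352054, score 1507), and its nearest SNU216 peak was also broad, at 3329 bp. In 9q22.2, the last of the 5 was 2505 bp wide with a score of 549.9 (chromosome 9, 92444289 to 92446793).

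Most MKN28-only strong peaks stood alone. Linking those with gaps of at most 50 kb left 1178 single peaks, 109 pairs and 15 clusters of 3 or more. The 15 clusters held 50 peaks, or 3.46% (2.58 to 4.53) of the MKN28-only strong peaks. The same rule put 124 of the shared strong peaks (7.53%, 6.30 to 8.91) in 37 clusters. Shared strong peaks were more numerous, at 1647 against 1446. Whether number accounts for the difference in clustering was not tested. The median distance to the nearest peak of the same set was 310.9 kb (268.6 to 344.6) for MKN28-only and 240.9 kb (218.9 to 262.9) for shared strong peaks. The largest cluster held 5 MKN28-only peaks, and the largest of shared strong peaks held 6.

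Strong peaks stood somewhat more often beside strong peaks of their own set. This is tied to the choice, since overlap with SNU216 defines the sets and a region with more SNU216 peaks also gives more overlap. The nearest other strong MKN28 peak was itself MKN28-only for 739 of 1446 MKN28-only strong peaks (51.1%, 48.5 to 53.7) and for 681 of 1646 shared ones (41.4%, 39.0 to 43.8), against 46.8% of all strong peaks. Where that neighbour was within 50 kb, the shares were 53.9% (240 of 445, 49.2 to 58.6) and 38.1% (210 of 551, 34.0 to 42.3). Overlap with SNU216 was thus still mixed at this scale, since 205 of those 445 near neighbours of an MKN28-only peak were shared. Pairs of nearest neighbours can be counted from both sides, so these intervals are too narrow.

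The 15 clusters were compact, with spans of 23.1 to 89.8 kb and a median of 51.3 kb, and lay on 9 chromosomes. None of the 15 held a shared strong peak, and 14 of the 15 held no SNU216 peak at all. Their strong peaks overlap no SNU216 peak by the choice. SNU216 peaks are also sparse on the scale of these spans, at 7.94 per Mb within 25 kb of MKN28-only strong peaks. No matching count was made for other spans, so nothing is read from this one. The exception was in 1q32.1 (chromosome 1, 206491157 to 206533055), where 1 SNU216 peak lay among the 3 MKN28-only peaks. The clusters held between 3 and 11 MKN28 peaks when weaker ones were counted.

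The cluster with the highest summed score was in 1p36.32, the band of PRDM16, a transcriptional regulator, and of the p53 relative TP73. Its 5 peaks spanned 89.8 kb (chromosome 1, 3375619 to 3465415). They scored 752.9, 560.4, 511.9, 1787 and 1900 in genome order and were 2172, 592, 312, 1739 and 818 bp wide. The 2 strongest were neighbours at the end with the higher coordinates, and the weakest was also the narrowest of all MKN28-only strong peaks. The nearest SNU216 peaks were 24.2 to 81.5 kb away.

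The second cluster was in 8q24.22, the band of NDRG1, a stress-response gene, and of the zinc finger gene ZFAT. Its 5 peaks spanned 81.6 kb (chromosome 8, 135789916 to 135871510) and scored 767.7, 1188, 508.5, 534.8 and 1666. Of these, 4 were wide for their score, at 1.29 to 1.84 times the median, and the peak of 698 bp was not, at 0.825 times. SNU216 peaks were 33.3 to 97.1 kb away.

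The third cluster was in 1q41 (chromosome 1, 214523017 to 214593448), close to its border with 1q32.3, where cytogenetic maps place PTPN14, a phosphatase that binds YAP and restrains it. Its 4 peaks scored 643.0, 783.1, 1116 and 929.2. They were of ordinary width, from 670 to 804 bp, and 26.8 to 96.5 kb from an SNU216 peak.

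The next 2 clusters had 3 peaks each. That in 19q13.2, a band with many zinc finger genes, spanned 71.6 kb (chromosome 19, 40519661 to 40591299) with scores of 874.4, 1247 and 714.8, and was at least 319.1 kb from any SNU216 peak. Its first and second peaks were 2.51 and 2.10 times as wide as peaks of like score. That in 1p22.1, the band of the adhesion adaptor gene BCAR3, spanned 55.3 kb (chromosome 1, 94049764 to 94105029) with scores of 704.6, 749.8 and 1182. All 3 of its peaks were wide, at 1.44 to 1.96 times the median, and were 53.8 to 107.6 kb from an SNU216 peak. The other 10 clusters had 3 peaks each and lay in 19p13.2, 11q14.2, 15q26.2, 1q24.2, 1q32.1, 11q12.3, 22q13.31, 12p13.31, 4p16.2 and 6q25.3. Their highest scores ranged from 547.1 in 6q25.3 to 1092 in 11q14.2.

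Along a chromosome, strong peaks were also read in order, whatever the gap, to find runs with no shared strong peak between them. The MKN28-only strong peaks fell into 730 runs, of which 382 held 1 peak and 44 held 5 or more. The shared strong peaks fell into 734 runs, of which 350 held 1 peak and 78 held 5 or more. The longest run of MKN28-only peaks held 10 and the longest of shared peaks 13.

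The longest MKN28-only run was in 22q11.21 to 22q11.23 (chromosome 22, 21380888 to 25172387). Its 10 strong peaks had a median score of 834.0, from 549.9 to 3100. The run held 96 MKN28 peaks and 10 SNU216 peaks, 7 of which overlapped a weaker MKN28 peak. The median distance from its strong peaks to an SNU216 peak was 274.6 kb.

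The next run was in 1p36.32 to 1p36.31 (chromosome 1, 3601436 to 6070274), with 9 strong peaks of 533.9 to 3100, 42 MKN28 peaks and 0 SNU216 peaks over 2.47 Mb. Another run of 9 was in 8q24.22 to 8q24.3 (chromosome 8, 134734912 to 140971901) and takes in the 8q24.22 cluster. It held 42 MKN28 and 15 SNU216 peaks, and 0 of those 15 overlapped an MKN28 peak. Both lines thus had peaks in this stretch of distal 8q, at different places.

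Runs of 8 followed in 19q13.12 (chromosome 19, 36673352 to 38221530), with scores of 601.3 to 2766, and in 1q41 to 1q42.13 (chromosome 1, 223906312 to 228319293), with scores of 510.8 to 1318. The 19q13.12 run spanned 1.55 Mb with 27 MKN28 peaks and 6 SNU216 peaks, 0 of which overlapped an MKN28 peak. The 1q run spanned 4.41 Mb with 94 MKN28 and 12 SNU216 peaks, of which 6 did. Another 5 runs also held 8, over longer spans, and are outside the 5 taken in order of length.

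The places below were picked after their values were seen. Taking each stretch between consecutive SNU216 peaks, 64 stretches held 3 or more MKN28-only strong peaks, and together 239 of them (16.5%). The fullest was on chromosome 1 from 3530286 to 6265861 (1p36.32 to 1p36.31), with 9 strong peaks and 48 MKN28 peaks in all. The next was in 4q34.1 to 4q35.1 (chromosome 4, 174173802 to 184020003), with 7 strong peaks among 59 over 9.85 Mb. It differed from the 1p36 stretch in strength, as the highest score was 1009 on chromosome 4 and 3100 on chromosome 1. In 22q11.21 (chromosome 22, 21271754 to 22655672), 6 strong peaks of 686.1 to 3100 had a median width of 1889 bp. The 48 MKN28 peaks of that stretch were 2.27 times as wide as peaks of like score at the median. That ratio was 1.36 in the 1p36.32 to 1p36.31 stretch and 0.922 in the 4q stretch.

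Windows of 1 Mb in which MKN28 peaks were wide for their score, at a median of over 1.2 times with at least 10 peaks, held 100 MKN28-only strong peaks (6.92% of them) and 106 shared ones (6.44%). The MKN28-only share there was 48.5% (41.5 to 55.6) of 206 strong peaks, close to that over the genome.

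MKN28-only strong peaks were found on all 22 autosomes and X, in 512 of the 646 cytogenetic bands that held a strong peak. Among the 21 chromosomes with at least 30 strong peaks, it was highest on chromosome 19 (76 of 140, 54.3%, 45.7 to 62.7), chromosome 4 (67 of 124, 54.0%, 44.9 to 63.0) and chromosome 22 (47 of 88, 53.4%, 42.5 to 64.1). It was lowest on chromosome 3 (45 of 131, 34.4%, 26.3 to 43.1), chromosome 20 (37 of 102, 36.3%, 27.0 to 46.4) and chromosome 14 (30 of 80, 37.5%, 26.9 to 49.0). The intervals of chromosomes 3 and 20 lay below the 46.8% of all strong peaks, and no chromosome's interval lay above it. With 21 chromosomes and no adjustment, 1 such interval can fall outside by counting error alone. Of peaks of any score, MKN28 had 2089, 1285 and 1001 on chromosomes 3, 20 and 14, and SNU216 had 913, 522 and 444. On chromosomes 19, 4 and 22, MKN28 had 1535, 1814 and 929, and SNU216 had 335, 496 and 167. The whole lists held 39477 and 11540.

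The chromosomes with a high share differed in how far the peaks were from SNU216 peaks. On gene-poor chromosomes 4 and 13 the median distance was 195.7 and 196.8 kb. On gene-dense chromosomes 19 and 22 it was 84.9 and 61.4 kb. On chromosomes 3 and 20 it was 37.9 and 41.2 kb.

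**Figure D5:**
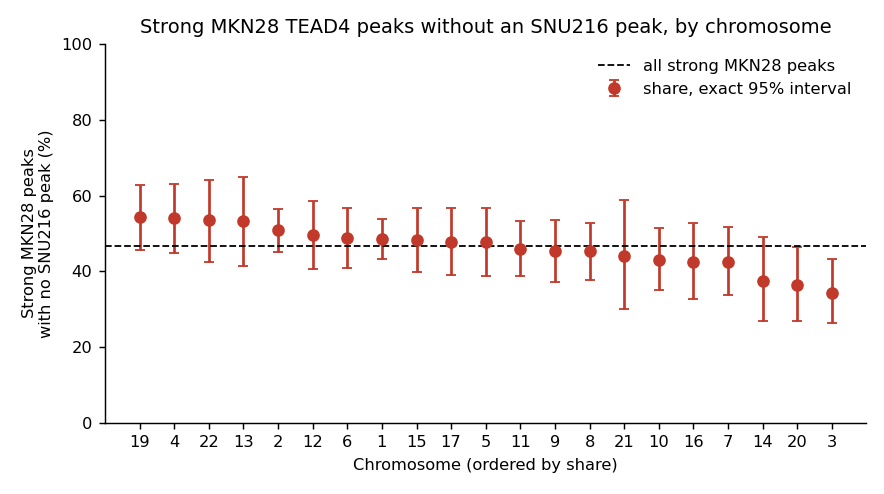
Share of strong MKN28 TEAD4 peaks with no SNU216 peak (y axis, percent) for the 21 chromosomes with at least 30 strong peaks (x axis, ordered by share). Points are shares, whiskers exact 95% intervals and the dashed line the 46.8% of all strong peaks; the whiskers of chromosomes 3 and 20 lie below the line and the others cross it.

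Chromosome arms added detail. Of 33 arms with at least 30 strong peaks, the intervals of 6p (45 of 76, 59.2%, 47.3 to 70.4) and 2p (77 of 133, 57.9%, 49.0 to 66.4) lay above 46.8%. Those of 20q (22 of 74, 29.7%, 19.7 to 41.5) and 3q (24 of 80, 20.3 to 41.3%) lay below it. The short arm of chromosome 20 was at 53.6% (15 of 28, 33.9 to 72.5) and 6q at 39.3% (33 of 84, 28.8 to 50.5). With 33 arms and no adjustment, some intervals can miss 46.8% by counting error alone. The differences between the arms of a chromosome were not tested.

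By band, the largest number of MKN28-only strong peaks was in 22q11.21, with 15 of 24 strong peaks. In 1p22.1 and 1q32.1 there were 13 each, of 18 and 27 strong peaks. In 19p13.2, 8q24.21 and 8q24.22 there were 12 each, of 19, 29 and 19. The pair of bands in distal 8q differed in the distance to SNU216 peaks, with a median of 17.0 kb in 8q24.21 and 38.1 kb in 8q24.22. Among the 18 bands with at least 8 MKN28-only strong peaks, these made up the largest part of the strong peaks in 19q13.12 (8 of 9), 2p22.1 (8 of 9) and 1p36.32 (11 of 13). In 104 bands, most with few strong peaks, all strong peaks were MKN28-only, and in 134 bands all were shared. Peaks in 2p22.1 were a median of 160.4 kb from an SNU216 peak.

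The fullest 1 Mb window was on chromosome 1 from 8 to 9 Mb, in 1p36.23. It held 8 MKN28-only peaks among 15 strong ones, with 20 SNU216 peaks beside them. The windows at 185 to 186 Mb of chromosome 1 (1q25.3), 135 to 136 Mb of chromosome 8 (8q24.22) and 21 to 22 Mb of chromosome 22 (22q11.21) held 6 strong peaks each, all MKN28-only, with 2, 2 and 1 SNU216 peaks. Dense MKN28-only binding was thus found both among many SNU216 peaks and where there were almost none.

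The kinds of band that hold these peaks were much the same for both sets. Light Giemsa bands, which are gene-rich, held 836 MKN28-only strong peaks (57.8%, 55.2 to 60.4) and 944 shared ones (57.3%, 54.9 to 59.7), near the 56.4% of all MKN28 peaks. The darkest bands held 85 (5.88%) and 109 (6.62%). Within 1 Mb of a chromosome end lay 26 MKN28-only strong peaks (1.80%) and 31 shared ones (1.88%), and within 1 Mb of a centromere band 22 and 33. The median distance to the chromosome end was 25.1 Mb (23.4 to 27.5) for MKN28-only and 28.9 Mb (27.3 to 30.6) for shared strong peaks, against 29.5 Mb (29.2 to 29.9) for all MKN28 peaks. The interval of the MKN28-only strong peaks lies below that of all MKN28 peaks and meets that of the shared ones from 27.3 to 27.5 Mb.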

How the data were processed

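TEAD4 ChIP-seq and input libraries of MKN28 and SNU216 were sequenced on an Illumina Genome Analyzer, per the labels' protocols. Bowtie2 2.0.0, CASAVA 1.8, MACS and hg19 are named in the submitters' processing notes, without settings or a MACS version. The authors deposited 1 peak list per TEAD4 library with a position and a score per peak, called without pooling against that line's input, as the lists are named. The scale of the score is not given in the sources used here, and such a score rises with depth, so scores were used within 1 list. Inputs were not analysed here.

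Positions are 1-based on hg19. Overlap meant at least 1 shared bp, and distance the bases between peak edges. Bands came from circlize 0.4.16, and 0 MKN28 peaks lay past a chromosome end. Width for score is the width divided by the median of MKN28 peaks of like score, in 50 groups by score rank. Shares carry exact 95% Clopper-Pearson intervals and medians 95% binomial intervals of order statistics, both for counting error only. No test was run. No hg19 genome or gene annotation was used, so the planned gene lists and motifs were not run and no sequence is shown. Computations ran in Python 3.11.15 (scipy 1.17.1, pandas 2.3.3, numpy 2.4.6), and the code was tested on simulated data.

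The regions and lists were chosen with earlier results of these data known. Named were the 10 highest-scoring peaks (ties by width), the 5 widest, the 3 nearest to and farthest from SNU216 peaks, the 5 fullest clusters (ties by summed score), the 5 longest runs (ties by shorter span) and the 3 highest and lowest chromosomes. Peaks at the threshold were also given.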

Additional observations from a re-analysis of the deposited data

How the results depend on the processing

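Unknown depth and 1 library per line limit every statement on peaks missing from SNU216, and no replicate could be left out. No paired analysis was possible because neither line has a numbered replicate. The settings with genes or motifs were not run. Of 74 values recomputed under other settings, 46 stayed within the interval (or, for the number of peaks, within 1.5 times) and 28 moved. The share in light Giemsa bands moved under none of the 9 settings tried for it. With a score of at least 400, 600 or 1000, the share of strong MKN28 peaks with no SNU216 peak was 50.9, 43.5 and 32.0%, the median width 754, 802 and 866 bp, and the share in clusters 6.70, 1.31 and 0%. At 1000 the number of peaks was 255, the median distance 79.8 kb and the share within 100 kb of an SNU216 peak 54.9%. With no SNU216 peak allowed within 10 kb, the share of strong peaks was 40.6%, the median distance 93.4 kb and the share within 100 kb 52.6%. Counting overlap only when 50% of both peaks is shared gave 59.2% of strong peaks, a distance of 42.6 kb with partly overlapping peaks at 0, and 67.4% within 100 kb. It also gave a width of 812 bp, a width for score of 1.05 and 5.57% in clusters. Using only SNU216 peaks with a score of at least 100 gave 58.4%, 165.4 kb, 39.9% within 100 kb and 4.88% in clusters. A gap of at most 10 kb put 0.207% in clusters and one of 100 kb 8.09%. Without 65 windows of 1 Mb with wide MKN28 peaks, a setting chosen after seeing the data, 2.53% were in clusters. A stricter overlap rule or fewer SNU216 peaks raise the share of strong peaks by construction, the 10 kb rule lowers it, and a wider gap raises the share in clusters. The 10 kb rule also raises the median distance and lowers the share within 100 kb by construction. Counting partly overlapping peaks at 0 does the reverse. Leaving out SNU216 peaks can only lengthen the distance of a given MKN28-only strong peak. The cause of the other moves was not tested.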
